A study of Mus musculus with 26 samples.

Results

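Type I interferon-stimulated genes were followed as a set of 42 genes out of 39179 gene entries in RNA sequencing of mouse brain cortex. The members were chosen by name as genes known to be induced by type I interferon, leaving out the PYHIN, GBP, IRG and Schlafen families. The list was made with earlier results of these data known, so counts of members below are not an independent test of it. All 42 were matched to an identifier of the deposited tables, and all 42 passed the filter on low counts that left 16325 genes for testing. Each member is named below with its role.

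All mice were C57BL/6J, an inbred strain that becomes obese on fat-rich food. They ate a diet with 60% of its calories from fat (high-fat) or one with 6% (control), and had a focal stroke or a sham operation. RNA was taken 3 days after stroke from cortex that held the stroke core and a rim of penumbral tissue around it. For the sham libraries no number of days after the operation is recorded here. At 6 weeks of diet there were 6 high-fat and 4 control-diet stroke libraries and 3 sham libraries on each diet, while at 15 weeks there were 6 high-fat and 4 control-diet stroke libraries. Sham tissue at 15 weeks was not analysed here. The age of the mice is not given, and the labels do not state that each library came from its own animal, so a p-value here measures spread between libraries, which may be technical. Replicates are numbered in the order of the deposited records, and groups without a stated time are the 6-week ones.

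Type I interferons are secreted by cells that sense foreign or misplaced nucleic acid, and they bind the receptor IFNAR on neighbouring cells. The kinases JAK1 and TYK2 on the receptor then switch on the complex ISGF3, which holds STAT2 and IRF9. ISGF3 binds the interferon-stimulated response element in promoters of interferon-induced genes. Products of the genes described here sense viral nucleic acid, degrade viral RNA, block translation and tag proteins with ISG15. In the brain, microglia, infiltrating myeloid cells, astrocytes and endothelium are all able to mount this response, also after sterile injury.

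The promoters of the members hold the letters that ISGF3 reads more often than promoters in general, and 6 of them are shown because their genes are described below. The RefSeq table (build GRCm38.p6) gave promoter windows of 250 bases before to 50 bases after a start for 31 of the 42 members. The core of the response element, searched as GAAANNGAAA on both strands with overlapping matches counted, was present in 15 of these 31 (48.4%) and in 3.99% of the promoters of all 27025 genes in the table. At least 2 matches were found in 8 members (25.8%) and in 0.266% of all genes. In other genes of the interferon pathway the core was present in 9 of 45 (20%). Each stretch below reads 5′ to 3′ on the strand of its gene, lies upstream of the start, and has the core in capitals, either as written or as its reverse complement.
Ifit3: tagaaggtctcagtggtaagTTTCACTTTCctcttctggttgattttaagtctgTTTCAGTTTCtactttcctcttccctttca
Stat2: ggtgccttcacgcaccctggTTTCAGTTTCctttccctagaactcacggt
Trim30a: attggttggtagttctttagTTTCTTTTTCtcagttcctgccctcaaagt
Bst2: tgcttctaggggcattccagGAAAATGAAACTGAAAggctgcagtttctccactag
Oas1a: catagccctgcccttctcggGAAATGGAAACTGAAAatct
Isg15: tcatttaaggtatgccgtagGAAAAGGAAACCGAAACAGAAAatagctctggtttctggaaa

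These stretches lie at chr19:34583353-34583436 (Ifit3, plus strand), chr10:128270256-128270305 (Stat2, plus strand), chr7:104465200-104465249 (Trim30a, minus strand), chr8:71537567-71537622 (Bst2, minus strand), chr5:120907526-120907565 (Oas1a, minus strand) and chr4:156200855-156200916 (Isg15, minus strand). Isg15 carries 3 overlapping cores, Oas1a and Bst2 carry 2 overlapping cores each, Ifit3 has 2 separate ones, and Stat2 and Trim30a have 1. The core closest to its start among these 6 is that of Oas1a, with matches beginning 20 and 14 bases before it. A match is a string of letters and not a measured binding site.

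Stroke was accompanied by higher levels of nearly the whole set on both diets. Of the 42 members, 34 rose on the control diet and 40 on the high-fat diet, and none fell (edgeR, adjusted p under 0.05 over all 16325 genes). In the same control-diet comparison 5.1% of all genes tested were called higher and 2.57% lower, and on the high-fat diet 14.2% were called higher and 8.85% lower. The median log2 fold change of the members was 2.00 on the control diet and 2.81 on the high-fat diet, beside 0.00 and -0.02 over all genes. The 34 members that rose on the control diet all rose on the high-fat diet too. Stat2, Ifih1, Oas1b, Oas1g, Parp12 and Xaf1 passed on the high-fat diet only, and Herc6 and Cmpk2 on neither. For 40 of the 42 members every stroke library lay above every sham library on the same diet, on each diet, which was the case for 14.93% of all genes on the control diet and 15.82% on the high-fat diet. Since these are pieces of whole tissue, more RNA of a gene per cell and more cells that express it cannot be told apart.

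The control-diet count rests on few libraries. Without control-diet sham replicate 1, 2 or 3 it was 7, 9 or 5 of 42 (303, 324 and 465 genes called in all, where the full comparison called 1253), and without control-diet stroke replicate 2 it was 12 (345 genes in all). Leaving out the low-count filter gave 21 (767 genes in all), and 18 were called with the share of counts outside genes as a covariate (725 in all). Other settings gave higher counts, with 36 by DESeq2 (1758 in all), 39 by voom (2860 in all) and 39 when the compared groups were fitted alone (2453 in all). The median log2 fold change was between 1.76 and 2.09 over all 7 control-diet libraries left out in turn, and the high-fat count stayed between 39 and 42.

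**Figure D1:**
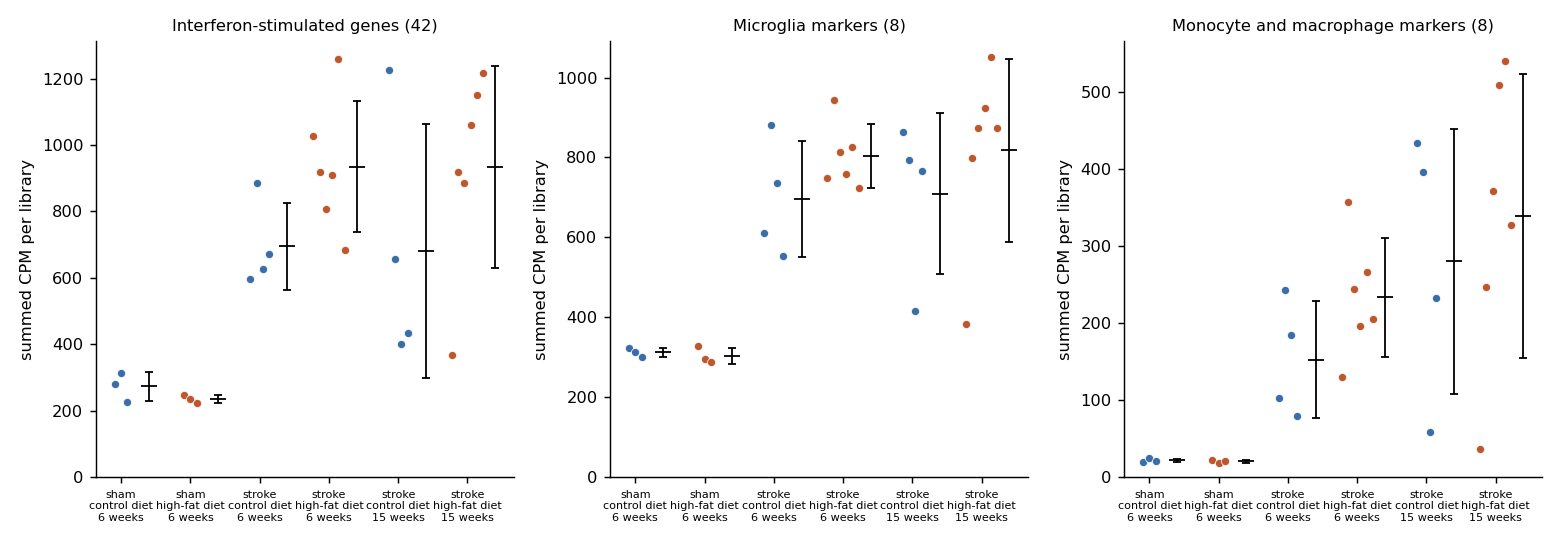
Summed CPM (counts scaled to one common library size) per library on the y axis for the 42 interferon-stimulated genes (left), 8 microglia markers (middle) and 8 monocyte and macrophage markers (right), by group on the x axis; points are libraries (blue control diet, orange high-fat diet) and the black mark and bar are the mean and SD. The 20 stroke libraries all lie above the 6 sham libraries in each panel, and the 15-week stroke groups spread most for the interferon-stimulated genes.

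Added over the 42 members, the level was 280, 314 and 227 CPM in control-diet sham and 246, 236 and 222 CPM in high-fat sham. In control-diet stroke it was 596, 885, 626 and 672 CPM. High-fat stroke ranged from 683 over a median of 914 to 1260 CPM. At 15 weeks the 4 control-diet stroke libraries stood at 1227, 656, 401 and 435 CPM. High-fat stroke at 15 weeks ranged from 369 over a median of 990 to 1218 CPM. Every stroke library was therefore above every sham library, while stroke groups of different diet or time overlapped. The summed mean was 2.54-fold higher in stroke than in sham on the control diet and 3.98-fold higher on the high-fat diet. The sum is weighted to abundant members, and Herc6 and Cmpk2, which were not called, had means of 36.4 and 31.0 CPM in control-diet sham. The median member rose more than the sum, by 2.00 and 2.81 on the log2 scale.

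Markers of microglia and of monocytes and macrophages were higher after stroke, as were the members. The 8 microglia markers summed to between 300 and 322 CPM in control-diet sham and to between 554 and 882 CPM in control-diet stroke. Under high-fat feeding they summed to between 288 and 327 CPM in sham and between 722 and 944 CPM in stroke. The 8 monocyte and macrophage markers summed to between 19.7 and 24.3 CPM in control-diet sham and to between 79.3 and 244 CPM in stroke, and on the high-fat diet to between 18.6 and 21.8 and between 130 and 358 CPM. The microglia sum was thus 2.23-fold and 2.65-fold higher in stroke, and the monocyte and macrophage sum 7.05-fold and 11.3-fold. Several of the microglia markers, among them Csf1r and Cx3cr1, are shared with macrophages. The monocyte and macrophage markers were present in sham too, so their sum does not tell infiltrating from resident cells. In high-fat sham 1 of the monocyte markers, Ly6c2, had no count in any library. The part of these cells in the rise of the members was not tested.

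Markers of several other cell types were also higher after stroke, some of them from very low levels. The neutrophil sum was 5.3-fold higher on the control diet and 10-fold on the high-fat diet, the B cell sum 2.57-fold and 4.01-fold, the meningeal sum 1.69-fold and 2.16-fold and the endothelial sum 1.33-fold and 1.53-fold. Their part in the rise of the members was not tested. The 7 neutrophil markers summed to at most 2.80 CPM in any 6-week library, and Ly6g had no count in any of the 26 libraries. T and NK cell markers summed to between 1.21 and 9.42 CPM in the 6-week groups, and B cell markers to at most 2.21 CPM. Of the plasmacytoid dendritic cell list, Bcl11a and Tcf4 are also neuronal genes and held nearly all of the sum, which was between 360 and 493 CPM in the 6-week groups, while Ccr9 reached at most 0.630 CPM in those groups and Klk1 and Spib less. Endothelial markers summed to between 107 and 137 CPM in sham and between 143 and 227 CPM in 6-week stroke, and astrocyte markers, which hold Gfap, to between 3317 and 4783 CPM in sham and between 4046 and 4443 CPM in 6-week stroke. Excitatory neuron markers were present in every 6-week library, as cortex should show, but were lower after stroke. They summed to between 1622 and 1820 CPM in control-diet sham and between 1314 and 1612 CPM in stroke (0.847-fold). With the high-fat diet they summed to between 1657 and 2112 CPM in sham and between 1354 and 1546 CPM in stroke (0.786-fold). The reason for this fall was not tested. Oligodendrocyte markers summed to between 3290 and 4942 CPM in the 6-week libraries. Meningeal and fibroblast markers summed to between 90.5 and 106 CPM in sham and between 141 and 264 CPM in 6-week stroke. Choroid plexus markers summed to 932 CPM in high-fat stroke replicate 6 and 268 CPM in high-fat sham replicate 2, against at most 77.6 CPM in the other 24 libraries. Without those 2 libraries 40 of 42 members rose on the high-fat diet, with a median log2 fold change of 2.85, while over all genes 1833 were called in place of 3769.

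**Figure D2:**
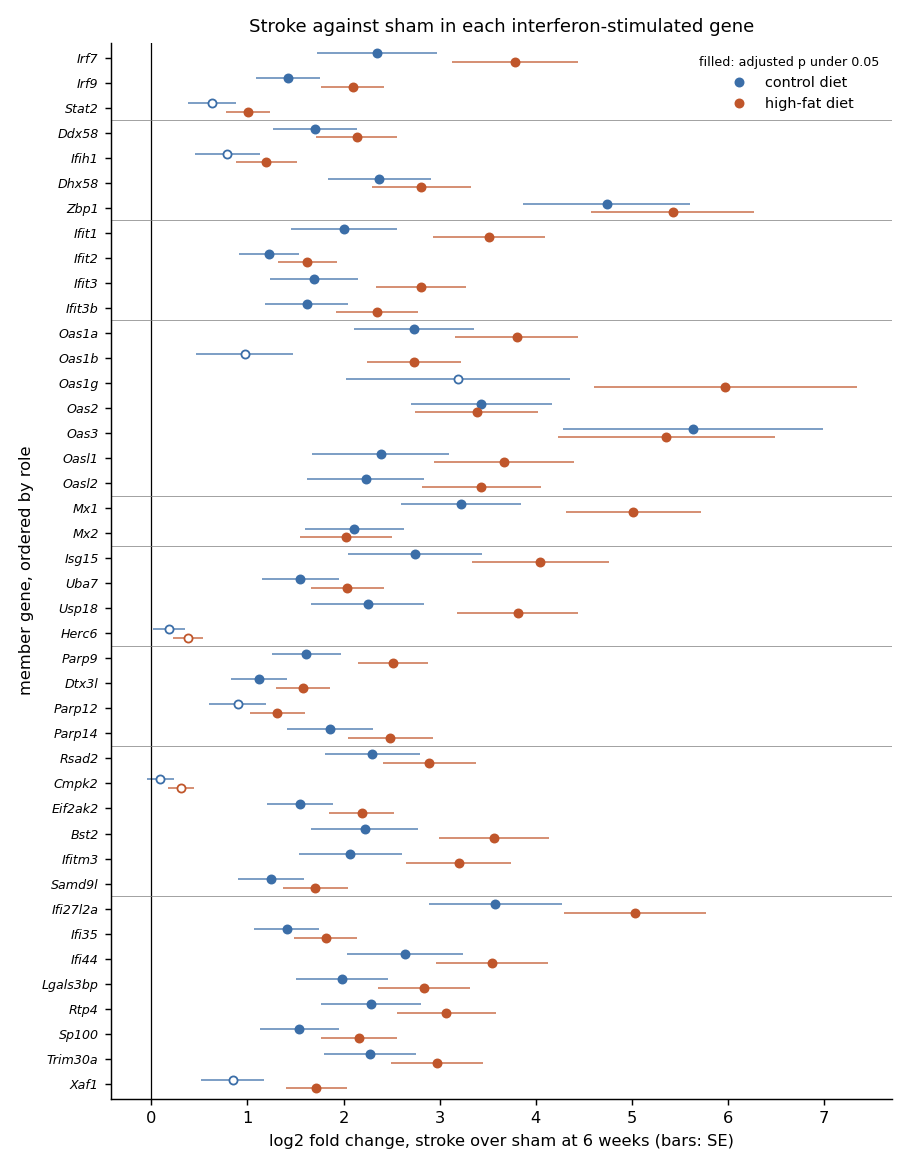
Log2 fold change of stroke over sham at 6 weeks (x axis) with its SE for each of the 42 members (y axis, grouped by role with lines between roles), on the control diet (blue) and the high-fat diet (orange); filled points have an adjusted p under 0.05. Open points are Stat2, Ifih1, Oas1b, Oas1g, Parp12 and Xaf1 on the control diet and Herc6 and Cmpk2 on both.

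Of the 3 transcription factors of the pathway 2 rose on the control diet and 3 on the high-fat diet, with the largest change in Irf7. IRF7 is the factor that amplifies interferon-alpha production, IRF9 the DNA-binding subunit of ISGF3, and STAT2 its signalling partner. Irf7 stood at 5.12, 3.85 and 2.07 CPM in control-diet sham and at 15.4, 28.7, 14.6 and 15.7 CPM in control-diet stroke, a log2 fold change of 2.35 ± 0.62 (SE, adjusted p = 0.025). Among mice on the high-fat diet Irf7 was at 2.02, 2.41 and 1.91 CPM in sham and between 18.8 and 45.1 CPM in stroke (median 28.2), a log2 fold change of 3.78 ± 0.65 (adjusted p = 0.000566). The groups did not overlap on either diet, and control-diet stroke replicate 2 was the highest of its group by a wide margin.

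Irf9 was at 10.2, 10.98 and 8.29 CPM in control-diet sham and at 24.1, 36.1, 20.7 and 24.0 CPM in stroke, a log2 fold change of 1.42 ± 0.34 (SE, adjusted p = 0.0141). It was at 8.29, 7.66 and 9.27 CPM in high-fat sham and between 28.5 and 46.2 CPM in high-fat stroke (median 34.8), a log2 fold change of 2.09 ± 0.33 (adjusted p = 0.000305). Again no stroke library came down to the sham range. Stat2, which has a response element core in its own promoter, was at 16.8, 19.6 and 16.7 CPM in control-diet sham and at 26.5, 32.4, 26.4 and 24.5 CPM in stroke. Its log2 fold change of 0.63 ± 0.25 did not pass on the control diet (adjusted p = 0.115), although the groups did not overlap. After high-fat feeding Stat2 was at 17.1, 17.8 and 16.7 CPM in sham and between 26.5 and 45.9 CPM in stroke (median 33.5), and rose by 1.01 ± 0.23 (adjusted p = 0.00378).

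The cytoplasmic and nuclear sensors of nucleic acid rose in 3 of 4 cases on the control diet and in 4 of 4 on the high-fat diet. Ddx58 encodes RIG-I and Ifih1 encodes MDA5, the receptors for viral double-stranded RNA, Dhx58 encodes their relative LGP2, and ZBP1 senses Z-form nucleic acid and can trigger necroptosis. Ddx58 was at 5.40, 7.13 and 4.73 CPM in control-diet sham and at 15.5, 23.3, 16.5 and 19.3 CPM in stroke, a log2 fold change of 1.70 ± 0.44 (SE, adjusted p = 0.0213). On the high-fat diet it was at 5.84, 6.24 and 4.67 CPM in sham and between 17.4 and 34.1 CPM in stroke (median 24.9), a log2 fold change of 2.14 ± 0.42 (adjusted p = 0.00128).

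Ifih1 had a smaller change than Ddx58. It was at 11.9, 12.5 and 11.4 CPM in control-diet sham and at 16.9, 23.0, 23.0 and 20.0 CPM in stroke, and its log2 fold change of 0.79 ± 0.34 (SE) did not pass (adjusted p = 0.155). In high-fat sham it was at 11.5, 11.4 and 12.3 CPM and in high-fat stroke it lay between 17.9 and 35.4 CPM (median 27.8), a log2 fold change of 1.20 ± 0.32 (adjusted p = 0.01). That call was lost without high-fat sham replicate 2 (adjusted p = 0.0543) and with the share of counts outside genes as a covariate (adjusted p = 0.0556).

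Zbp1 went from near 0 to among the most changed members. It was at 0.484, 0.0699 and 0.0647 CPM in control-diet sham, 9 counts in all, and at 4.85, 7.77, 4.58 and 5.33 CPM in stroke (log2 fold change 4.74 ± 0.87, SE, adjusted p = 0.00393). High-fat sham held 8 counts of Zbp1 and no count in replicate 2, while high-fat stroke ranged from 6.44 to 10.7 CPM (log2 fold change 5.42 ± 0.84, adjusted p = 0.000294). With so few sham counts the ratio is loose, at 28.2 with a 95% counting interval from 14.7 to 62.2 on the control diet and at 44.9 from 22.7 to 104 on the high-fat diet. Dhx58 rose by 2.37 ± 0.54 on the control diet (adjusted p = 0.0117) and by 2.81 ± 0.51 on the high-fat diet (adjusted p = 0.000698).

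All 4 IFIT genes rose on both diets. IFIT proteins bind viral RNA or the translation factor eIF3 and block translation. The 4 genes lie on chromosome 19, and the printed stretch of Ifit3 is identical in Ifit3b. Ifit3 was at 17.2, 20.0 and 9.06 CPM in control-diet sham and at 39.9, 64.8, 40.9 and 52.5 CPM in stroke, a log2 fold change of 1.69 ± 0.46 (SE, adjusted p = 0.0279). With the high-fat diet it was at 10.3, 10.4 and 9.41 CPM in sham and between 48.9 and 95.9 CPM in stroke (median 66.4), a log2 fold change of 2.81 ± 0.47 (adjusted p = 0.000451). All stroke libraries of both diets lay above all sham libraries.

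Ifit2 was at 19.1, 22.2 and 17.9 CPM in control-diet sham and at 43.2, 53.1, 43.3 and 44.6 CPM in stroke, a log2 fold change of 1.22 ± 0.31 (SE, adjusted p = 0.0205). The high-fat sham libraries had 18.8, 16.8 and 16.8 CPM and the stroke libraries between 39.9 and 68.7 CPM (median 55.2), a log2 fold change of 1.63 ± 0.30 (adjusted p = 0.000878). Ifit2 had the smallest change of the family on both diets, and Ifit1 the largest, with log2 fold changes of 2.01 ± 0.55 (adjusted p = 0.03) and 3.52 ± 0.58 (adjusted p = 0.000438). The transcripts of Ifit3 and Ifit3b are 97.82% identical over 1700 bases, so reads could be split or lost between them and each is uncertain alone. Their counts added together rose by 1.67 ± 0.44 on the control diet and by 2.67 ± 0.45 on the high-fat diet (adjusted p = 0.0261 and 0.000499).

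The OAS family held the largest and the least certain changes. OAS enzymes make 2′-5′ oligoadenylates that switch on RNase L, which cuts RNA, while the OASL proteins lack that activity or have little of it. All 7 genes lie on chromosome 5. Of these, 5 rose on the control diet, with a median log2 fold change of 2.74, and all 7 on the high-fat diet, with a median of 3.67. Oasl2 was at 3.60, 4.34 and 1.36 CPM in control-diet sham and at 13.01, 19.2, 12.7 and 12.8 CPM in stroke (log2 fold change 2.23 ± 0.60, SE, adjusted p = 0.028). Under high-fat feeding it was at 2.23, 2.20 and 1.91 CPM in sham and between 15.4 and 35.7 CPM in stroke (median 21.1, log2 fold change 3.43 ± 0.62, adjusted p = 0.000727). The stroke and sham ranges of Oasl2 were apart on both diets.

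Oas1a was at 0.830, 1.05 and 0.971 CPM in control-diet sham and at 4.85, 9.81, 5.55 and 5.20 CPM in stroke (log2 fold change 2.74 ± 0.63, SE, adjusted p = 0.0125). In high-fat sham it was at 0.504, 1.06 and 0.424 CPM and in high-fat stroke it lay between 5.71 and 14.8 CPM (median 8.67, log2 fold change 3.80 ± 0.64, adjusted p = 0.000438). Oas1g is a near copy, and its promoter shares the first 38 bases of the stretch printed for Oas1a. It had 5 counts over the 3 control-diet sham libraries and 63 over the 4 stroke libraries, a ratio of 9.86 with a 95% counting interval from 4.01 to 31.4, and did not pass (adjusted p = 0.0931). In high-fat sham it had 1 count and in high-fat stroke 195, a ratio of 86.4 with an interval from 15.3 to 3429, and it was called higher (adjusted p = 0.00351). Oas1g was at 0.366 CPM in high-fat stroke replicate 6 and between 1.54 and 2.89 CPM in the other 5. Oas1a and Oas1g transcripts are 97.53% identical over 1860 bases, and their summed counts rose by 2.80 ± 0.68 and 4.03 ± 0.71 (log2, adjusted p = 0.0162 and 0.00057).

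Oas1b is the gene behind resistance to flaviviruses in mice, and C57BL/6J carries an allele with a premature stop, so its RNA is a readout of the pathway and not of a working protein. It was at 0.484, 0.699 and 0.453 CPM in control-diet sham and at 0.914, 1.59, 1.06 and 0.724 CPM in stroke, and its log2 fold change of 0.97 ± 0.50 (SE) did not pass (adjusted p = 0.248). Among mice on the high-fat diet it was at 0.288, 0.284 and 0.495 CPM in sham and between 1.46 and 3.21 CPM in stroke (median 2.41, log2 fold change 2.73 ± 0.49, adjusted p = 0.000541). The control-diet values come close to touching, with 0.699 CPM in the highest sham and 0.724 CPM in the lowest stroke library. Oas3 had 1 count in control-diet sham and 2 in high-fat sham against 88 and 218 in stroke. Its ratios were 68.9 (95% counting interval 12.1 to 2751) and 48.3 (13.2 to 401), and it was called higher on both diets (adjusted p = 0.0146 and 0.00185). Oas2 rose by 3.43 ± 0.73 and 3.39 ± 0.64 (adjusted p = 0.00833 and 0.00085), and Oasl1 by 2.39 ± 0.71 and 3.67 ± 0.73 (adjusted p = 0.0408 and 0.00114).

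Both MX genes, on chromosome 16, rose on both diets. MX proteins are dynamin-like GTPases that trap viral particles, and C57BL/6J, like most laboratory strains, carries a defective Mx1. Mx1 was at 0.761, 1.12 and 0.259 CPM in control-diet sham and at 6.75, 8.47, 5.37 and 5.86 CPM in stroke, a log2 fold change of 3.22 ± 0.62 (SE, adjusted p = 0.00541). On the high-fat diet it was at 0.504, 0.213 and 0.142 CPM in sham, 12 counts in all, and between 7.03 and 13.2 CPM in stroke (median 9.09), a log2 fold change of 5.01 ± 0.70 (adjusted p = 0.000206). That was the smallest adjusted p of any member.

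Mx2 changed less. It was at 0.830, 1.75 and 0.841 CPM in control-diet sham and at 4.64, 6.24, 4.05 and 4.74 CPM in stroke (log2 fold change 2.11 ± 0.51, SE, adjusted p = 0.0156). The high-fat sham libraries had 1.73, 1.56 and 0.778 CPM and the stroke libraries between 3.59 and 7.76 CPM (median 5.26, log2 fold change 2.03 ± 0.48, adjusted p = 0.0042). Neither gene overlapped between stroke and sham. Mx1 and Mx2 transcripts share 920 bases at 94.78% identity, and their summed counts rose by 2.65 ± 0.56 and 3.19 ± 0.55 (log2, adjusted p = 0.00833 and 0.000542).

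Of the ISG15 system 3 of 4 genes rose on both diets. ISG15 is a ubiquitin-like protein that is joined to other proteins by UBA7 and, in mice, the ligase HERC6, and taken off by USP18, which also binds IFNAR2 and dampens the receptor. Usp18 was at 2.42, 2.66 and 1.10 CPM in control-diet sham and at 6.96, 15.7, 7.22 and 8.95 CPM in stroke, a log2 fold change of 2.25 ± 0.58 (SE, adjusted p = 0.0224). For the high-fat diet it was at 0.648, 1.28 and 1.13 CPM in sham and between 8.64 and 23.0 CPM in stroke (median 13.02), a log2 fold change of 3.81 ± 0.63 (adjusted p = 0.000436). Isg15 rose by 2.75 ± 0.69 and 4.05 ± 0.71 (adjusted p = 0.0192 and 0.000563). Its transcript shares 482 bases at 95.23% identity with the annotated gene AC151275.1. Uba7 rose by 1.55 ± 0.40 and 2.04 ± 0.38 (adjusted p = 0.021 and 0.000842).

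Herc6 stood apart from the other 3. It was at 37.8, 40.2 and 31.3 CPM in control-diet sham and at 39.6, 43.1, 40.1 and 42.3 CPM in stroke, with a log2 fold change of 0.18 ± 0.17 (SE, adjusted p = 0.56). In high-fat sham it was at 36.0, 34.1 and 30.7 CPM and in high-fat stroke it lay between 33.6 and 50.9 CPM (median 44.9), with a log2 fold change of 0.39 ± 0.16 (adjusted p = 0.076). The ranges overlapped on both diets. Its level in sham was among the highest of the set per length of transcript, at 3.92 RPKM (CPM per kilobase of exon) on the control diet and 3.61 RPKM on the high-fat diet, rank 5 of 42 in both groups. The high-fat change passed without stroke replicate 6 (adjusted p = 0.0366), with the compared groups fitted alone (adjusted p = 0.0395) and by voom (adjusted p = 0.0046).

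Of the PARP and DTX3L genes 3 of 4 rose on the control diet, where their median log2 fold change was 1.37, and 4 of 4 on the high-fat diet, where it was 2.03. PARP9 and DTX3L work as a pair that ubiquitinates and ADP-ribosylates targets at DNA damage and interferon-responsive chromatin, and PARP12 and PARP14 are further ADP-ribosyltransferases. Dtx3l was at 10.7, 10.7 and 8.41 CPM in control-diet sham and at 18.9, 25.7, 20.8 and 20.7 CPM in stroke, a log2 fold change of 1.12 ± 0.29 (SE, adjusted p = 0.0225). With the high-fat diet it was at 10.01, 8.44 and 9.84 CPM in sham and between 22.6 and 35.2 CPM in stroke (median 27.6), a log2 fold change of 1.58 ± 0.28 (adjusted p = 0.000597). Parp12 was at 12.5, 14.1 and 10.4 CPM in control-diet sham and at 18.4, 27.8, 24.0 and 21.8 CPM in stroke, and its log2 fold change of 0.90 ± 0.30 did not pass (adjusted p = 0.0628). The groups of Parp12 were apart nonetheless. The high-fat sham libraries had 13.4, 10.1 and 11.04 CPM and the stroke libraries between 23.0 and 33.4 CPM (median 28.9), a log2 fold change of 1.31 ± 0.28 (adjusted p = 0.00232). Parp9 rose by 1.61 ± 0.36 and 2.51 ± 0.36 (adjusted p = 0.011 and 0.000244), and Parp14 by 1.86 ± 0.45 and 2.49 ± 0.44 (adjusted p = 0.0157 and 0.000632). Parp9 and Dtx3l share 458 exon bases on opposite strands, and the strand setting of the counting is not given in the sources used here, so some counts could belong to the partner.

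The direct antiviral effectors rose in 5 of 6 cases on each diet. SAMD9L restrains translation in infected cells, RSAD2 (viperin) makes a chain-terminating nucleotide, CMPK2 is a mitochondrial nucleotide kinase encoded beside it, EIF2AK2 (PKR) phosphorylates eIF2alpha, BST2 (tetherin) holds budding virions, and IFITM3 blocks entry from endosomes. Samd9l was at 13.4, 17.9 and 12.9 CPM in control-diet sham and at 30.9, 39.2, 33.3 and 36.6 CPM in stroke, a log2 fold change of 1.25 ± 0.35 (SE, adjusted p = 0.031). Under high-fat feeding it was at 14.5, 12.5 and 14.1 CPM in sham and between 37.5 and 67.0 CPM in stroke (median 40.5), a log2 fold change of 1.71 ± 0.33 (adjusted p = 0.00121). The highest of these, 67.0 CPM in replicate 5, was well above the next library at 43.7 CPM.

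Cmpk2 was the member that differed least between stroke and sham. It was at 30.2, 32.3 and 30.6 CPM in control-diet sham and at 30.5, 37.6, 26.2 and 37.6 CPM in stroke, with a log2 fold change of 0.09 ± 0.14 (SE, adjusted p = 0.749). In high-fat sham it was at 27.5, 28.3 and 29.0 CPM and in high-fat stroke it lay between 28.3 and 40.3 CPM (median 35.6), with a log2 fold change of 0.31 ± 0.13 (adjusted p = 0.0883). Stroke and sham overlapped on both diets. Rsad2, on the same chromosome 12, rose by 2.30 ± 0.50 and 2.89 ± 0.48 (adjusted p = 0.0087 and 0.000437). Like Herc6, Cmpk2 was high in sham, at 7.45 RPKM on the control diet, second of the 42 members, and at 6.79 RPKM on the high-fat diet, where it was first. Its high-fat change passed by voom (adjusted p = 0.0278) and without stroke replicate 6 (adjusted p = 0.0457).

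Bst2 rose by 2.22 ± 0.56 and 3.57 ± 0.58 (log2 fold change ± SE, adjusted p = 0.0191 and 0.000391). Its mean went from 3.25 to 15.0 CPM with the control diet and from 2.04 to 24.3 CPM with the high-fat diet. Ifitm3 rose by 2.07 ± 0.54 and 3.20 ± 0.55 (adjusted p = 0.0222 and 0.000542), and Eif2ak2 by 1.55 ± 0.34 and 2.19 ± 0.34 (adjusted p = 0.0108 and 0.000289). The Ifitm3 transcript shares 356 bases at 91.57% identity with the annotated gene Gm6885. Per length Ifitm3 and Bst2 were among the 4 highest members after stroke. In control-diet stroke the highest members were Ifi27l2a at 30.5 RPKM, Ifitm3 at 29.8 RPKM, Ifit3 at 28.4 RPKM and Bst2 at 16.6 RPKM. The same 4 led high-fat stroke, at 47.4, 43.8, 40.3 and 26.9 RPKM. In control-diet sham the order was Ifit3 at 8.83 RPKM, Cmpk2, Ifitm3 at 7.11 RPKM and Ifit2 at 5.03 RPKM. Oas3 was last in all 6 groups. Neighbours in these orders, such as Ifi27l2a and Ifitm3 after stroke, lie within each other's spread between libraries.

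The other induced genes rose in 7 of 8 cases on the control diet and in 8 of 8 on the high-fat diet. LGALS3BP is a secreted glycoprotein, TRIM30A a restrainer of inflammatory signalling, IFI27L2A a small mitochondrial or nuclear envelope protein and XAF1 a pro-apoptotic factor. Lgals3bp was at 7.40, 6.85 and 3.63 CPM in control-diet sham and at 18.0, 32.0, 21.4 and 22.5 CPM in stroke, a log2 fold change of 1.99 ± 0.48 (SE, adjusted p = 0.0162). On the high-fat diet it was at 5.48, 4.89 and 3.89 CPM in sham and between 21.9 and 46.6 CPM in stroke (median 31.7), a log2 fold change of 2.83 ± 0.48 (adjusted p = 0.000493). Its groups were far apart on both diets.

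Trim30a was at 4.15, 5.74 and 3.24 CPM in control-diet sham and at 17.2, 29.4, 19.1 and 18.6 CPM in stroke (log2 fold change 2.28 ± 0.48, SE, adjusted p = 0.00833). The high-fat sham libraries had 4.32, 3.69 and 2.97 CPM and the stroke libraries between 22.3 and 37.8 CPM (median 28.0, log2 fold change 2.98 ± 0.48, adjusted p = 0.000378). Xaf1 was at 7.19, 6.92 and 5.37 CPM in control-diet sham and at 10.3, 14.8, 9.60 and 11.98 CPM in stroke, and did not pass (log2 fold change 0.85 ± 0.33, adjusted p = 0.112). After high-fat feeding Xaf1 was called higher, from 5.91, 4.04 and 5.02 CPM in sham to between 12.3 and 21.2 CPM in stroke (median 16.5, log2 fold change 1.72 ± 0.32, adjusted p = 0.000816). Both genes had groups that did not overlap, Xaf1 also on the control diet. Ifi27l2a had the largest rise of the group, 3.58 ± 0.69 and 5.03 ± 0.74 (adjusted p = 0.00575 and 0.000282). Ifi44 rose by 2.64 ± 0.60 and 3.54 ± 0.58, Rtp4 by 2.28 ± 0.52 and 3.07 ± 0.52, Sp100 by 1.54 ± 0.41 and 2.16 ± 0.40, and Ifi35 by 1.41 ± 0.34 and 1.81 ± 0.33.

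**Figure D3:**
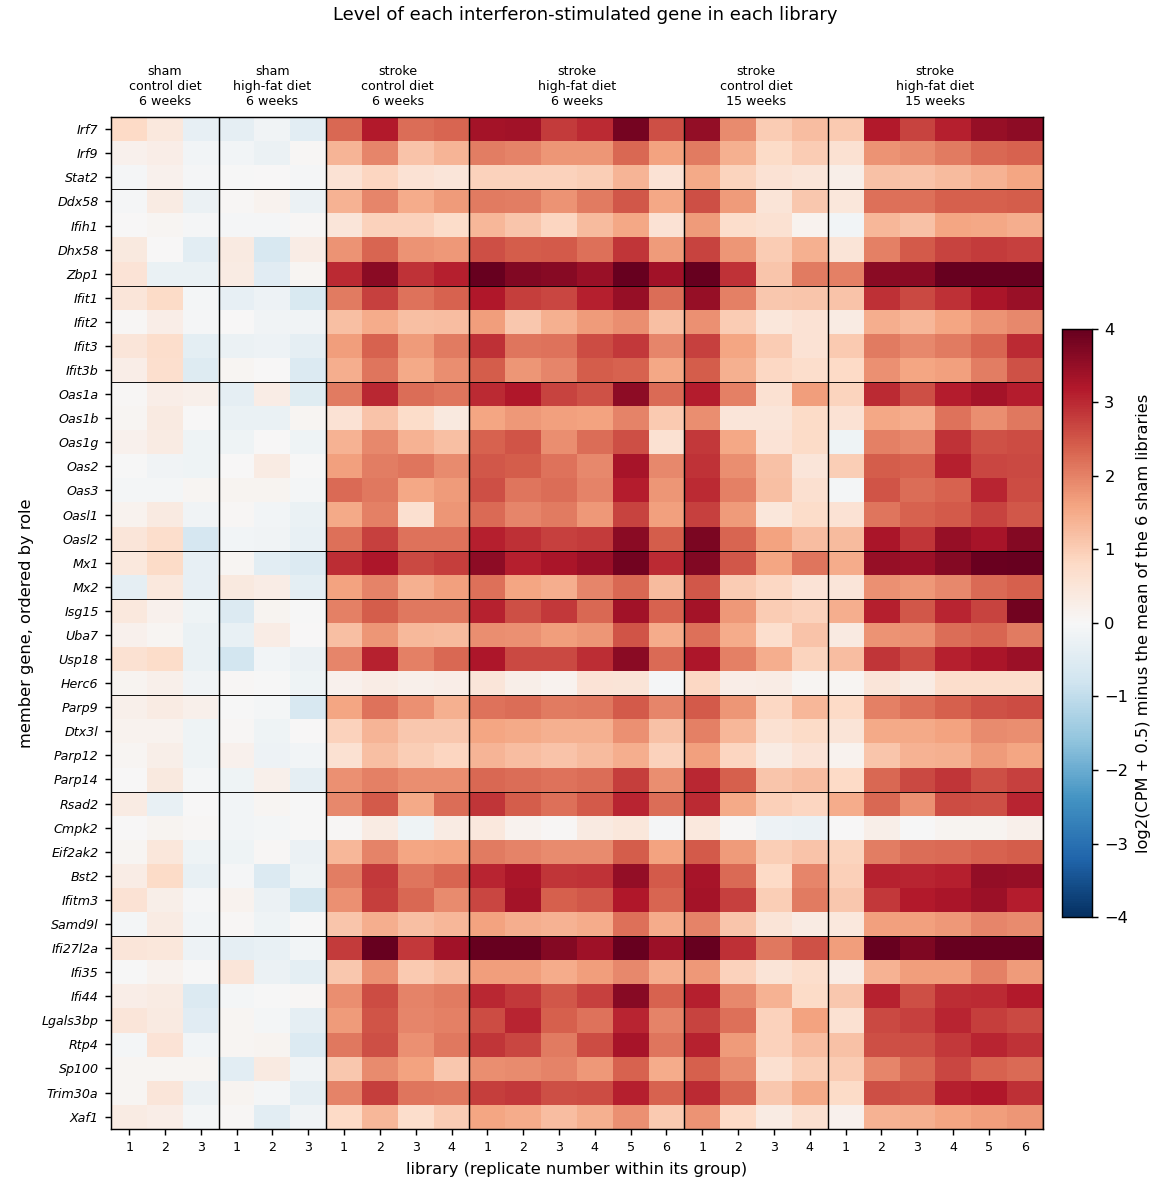
Level of each of the 42 members (y axis, by role) in each of the 26 libraries (x axis, replicate numbers within the 6 groups), as log2(CPM + 0.5) minus the mean of the 6 sham libraries; colours end at 4 in either direction. Whole columns are dark or pale together, as in control-diet 15-week stroke replicate 1, the highest of its group for all 42 members, and high-fat 15-week stroke replicate 1, the lowest for 41, and the rows of Herc6 and Cmpk2 stay pale throughout.

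The members varied together from library to library. Control-diet stroke replicate 2 was the highest of its 4 libraries for 39 of 42 members, and it also had the highest microglia and monocyte marker sums of that group, at 882 and 244 CPM. High-fat stroke replicate 5 was the highest of 6 for 36 members, but not for those marker sums, which were highest in replicate 2. High-fat stroke replicate 6, the library with the most choroid plexus RNA, was the lowest for 35. At 15 weeks, control-diet replicate 1 was the highest for all 42 members and had the highest microglia and monocyte marker sums of its group, at 865 and 435 CPM. High-fat replicate 1 at 15 weeks was the lowest for 41 members, with microglia and monocyte marker sums of 384 and 36.8 CPM where the other 5 libraries had at least 798 and 247 CPM. Control-diet replicate 3 at 15 weeks was the lowest for 27 members, with marker sums of 415 and 58.5 CPM. Markers and members did not always go together. High-fat stroke replicate 1 at 6 weeks had the lowest monocyte sum of its group, at 130.1 CPM, and the next to highest member level, at 1026 CPM. Control-diet replicate 2 at 15 weeks had a monocyte sum of 396 CPM beside a member level of 656 CPM. The part of the marker genes in these differences was not tested.

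The members had a wide spread within groups. Their median coefficient of variation between libraries was 23.4% in control-diet stroke and 25.7% in high-fat stroke at 6 weeks, and 64.1% and 39.3% at 15 weeks. Over all genes tested the medians were 9.95%, 10.3%, 12% and 14.1% in the same groups. In sham the members stood at 26% on the control diet and 19.8% on the high-fat diet, beside 8.39% and 10.5% over all genes.

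A test of whether stroke raised the members more on one diet than on the other found no call. In the surgery-by-diet comparison 0 of 42 members passed in edgeR, as did 0% of all 16325 genes, and at an unadjusted p under 0.05 there was 1 member (5.6% of all genes). DESeq2 and voom also called 0 members, with 6 and 4 at an unadjusted p under 0.05 (3.51% and 14.3% of all genes). The difference was positive, a larger rise on the high-fat diet, for 39 of the 42, with a median of 0.69 on the log2 scale beside 0.01 over all genes, of which 51.4% were positive. Oas2, Oas3 and Mx2 were the 3 members below 0. The 4 with the smallest p were Oas1b (1.76 ± 0.73, SE), Xaf1 (0.87 ± 0.45), Ifit1 (1.51 ± 0.79) and Parp9 (0.90 ± 0.50), each with an adjusted p of 0.832. These values come from the same libraries as the 2 stroke comparisons. The members varied together from library to library. Counts of members above or below 0, here and in the comparisons that follow, are therefore not counts of independent results.

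**Figure D4:**
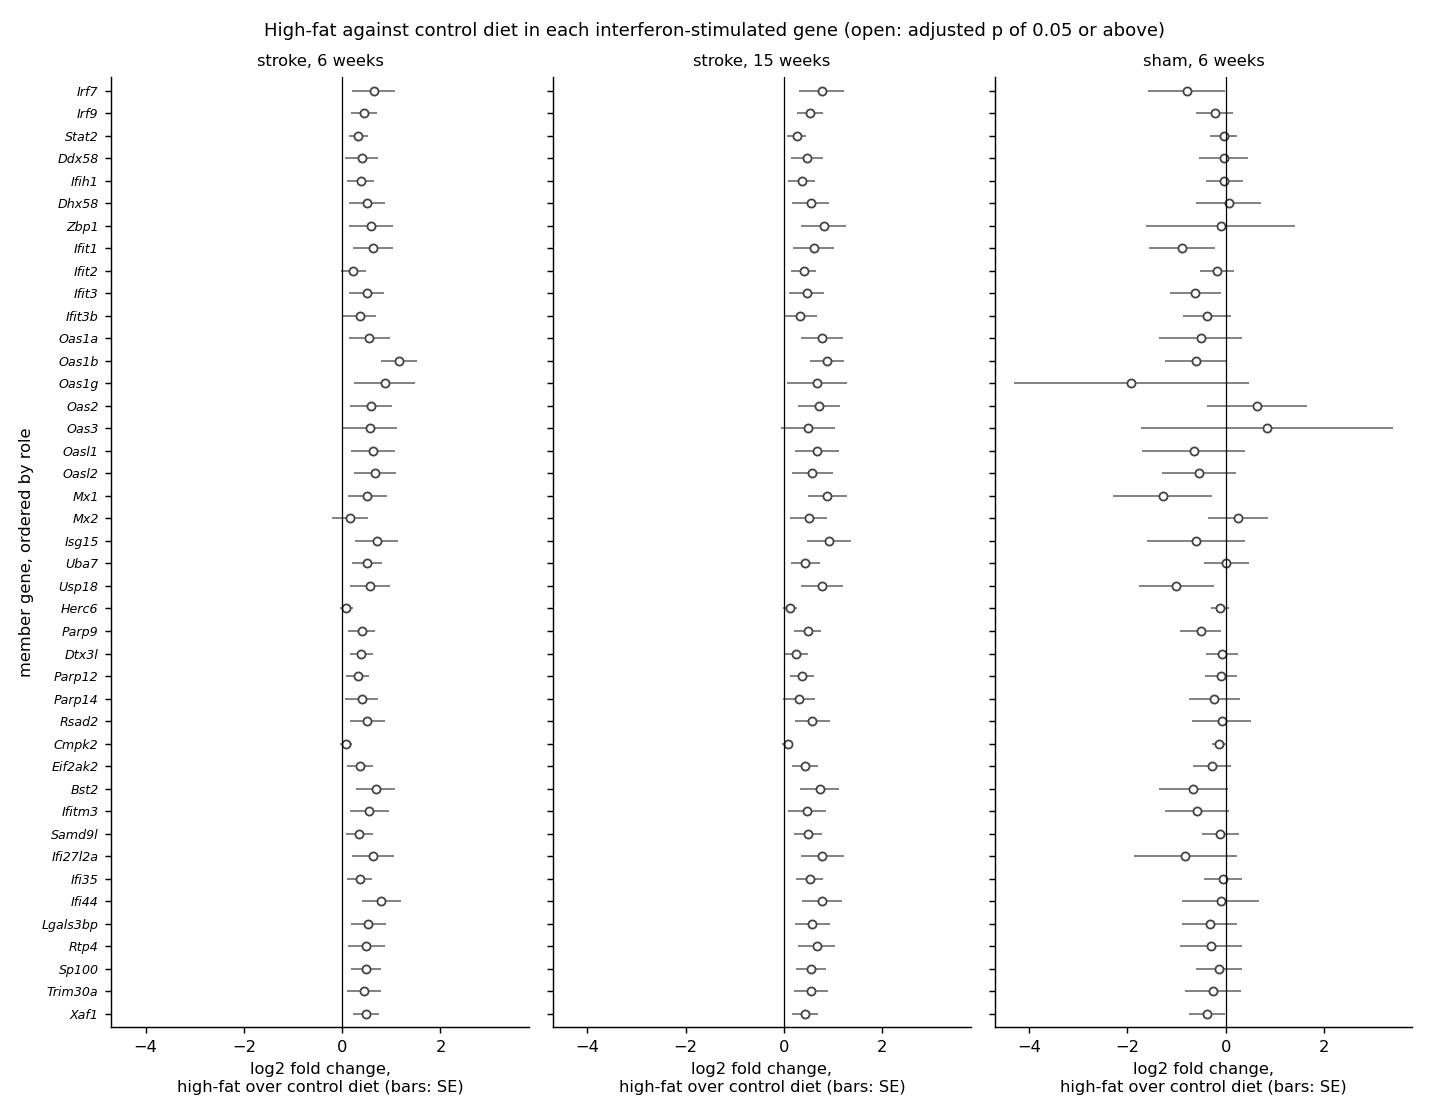
Log2 fold change of high-fat over control diet (x axis) with its SE for each of the 42 members (y axis, by role) in stroke at 6 weeks (left), stroke at 15 weeks (middle) and sham at 6 weeks (right); all points are open because none had an adjusted p under 0.05. All 42 lie above 0 in both stroke panels and 37 lie below 0 in sham.

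Within stroke the members stood somewhat higher on the high-fat diet at both times, and none passed the test. At 6 weeks the log2 difference was above 0 for 42 of 42 members, with a median of 0.50 and a range from 0.08 (Cmpk2) to 1.16 (Oas1b), beside a median of -0.01 and 48.5% above 0 over all genes. No member was called by edgeR, as were 0% of all genes, and 1 had an unadjusted p under 0.05 (6.99% of all genes). DESeq2 and voom called 0 members as well, with 2 and 30 at an unadjusted p under 0.05 (4.18% and 17% of all genes). No member had groups that were apart, while 1.04% of all genes lay wholly higher and 1.21% wholly lower on the high-fat diet. The median monocyte sum was 225 CPM on the high-fat diet beside 144 CPM on the control diet, and the median microglia sum 787 beside 674 CPM. Their part in the difference was not tested. The median was 0.38 without high-fat replicate 5 and 0.68 without control-diet replicate 2.

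Oas1b had the smallest p of the members in 6-week stroke. Its levels were 0.914, 1.59, 1.06 and 0.724 CPM on the control diet and between 1.46 and 3.21 CPM (median 2.41) on the high-fat diet, a log2 difference of 1.16 ± 0.36 (SE, unadjusted p = 0.00346, adjusted p = 0.667). The highest control-diet library, at 1.59 CPM, reached into the high-fat range only above its lowest library, at 1.46 CPM. Next were Ifi44 (0.80 ± 0.40), Xaf1 (0.49 ± 0.26) and Bst2 (0.69 ± 0.40), with the same adjusted p of 0.667. Each of the 3 overlapped between diets.

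At 15 weeks the log2 difference between diets in stroke was again above 0 for 42 of 42 members, with a median of 0.54 and a range from 0.08 (Cmpk2) to 0.93 (Isg15), beside a median of 0.00 and 50.4% above 0 over all genes. No member was called by edgeR, as were 0% of all genes, and 2 had an unadjusted p under 0.05 (7.96% of all genes). DESeq2 and voom called 0 too, with 4 and 31 at an unadjusted p under 0.05 (4.86% and 10.5% of all genes). The size depended on single libraries, since the median was 1.01 without control-diet replicate 1 and 0.34 without control-diet replicate 3. The median monocyte sum was 350 CPM on the high-fat and 314 CPM on the control diet, and the median microglia sum 873 and 779 CPM. Their part was not tested. Without the 2 libraries lowest in myeloid markers, high-fat replicate 1 and control-diet replicate 3, the median log2 difference was 0.53.

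Oas1b was at 2.92, 0.806, 0.804 and 1.12 CPM in control-diet stroke at 15 weeks and between 0.904 and 3.76 CPM on the high-fat diet (median 2.58), a log2 difference of 0.87 ± 0.35 (SE, unadjusted p = 0.0186, adjusted p = 0.569). Mx1 was at 11.9, 4.84, 2.33 and 3.67 CPM on the control diet and between 2.14 and 15.4 CPM on the high-fat diet (median 10.8), a log2 difference of 0.88 ± 0.40 (adjusted p = 0.613). Isg15 was at 8.82, 2.62, 1.37 and 1.25 CPM on the control diet and between 2.06 and 12.9 CPM on the high-fat diet (median 6.36), a log2 difference of 0.93 ± 0.45 (adjusted p = 0.63). All 3 overlapped between diets. Control-diet replicate 1 lay in the high-fat range for each, and high-fat replicate 1 lay in the control range for Oas1b and Isg15 and below it for Mx1. Irf9, next by p, had a log2 difference of 0.53 ± 0.26 (adjusted p = 0.639).

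In sham cortex the members did not share the direction seen in stroke. Of 42, 37 had a log2 difference below 0, lower on the high-fat diet, with a median of -0.24 beside -0.01 over all genes, of which 46.6% were above 0. No member was called by edgeR, as were 0% of all genes, and 0 had an unadjusted p under 0.05 (4.79% of all genes). DESeq2 and voom also gave 0 calls and 0 at an unadjusted p under 0.05. The 4 smallest p belonged to Ifit1 (-0.88 ± 0.67, SE), Usp18 (-0.998 ± 0.77), Mx1 (-1.28 ± 1.00) and Parp9 (-0.50 ± 0.42), each with an adjusted p of 0.966. The 3 high-fat libraries lay below the 3 control-diet libraries for Ifit1, Parp9 and Cmpk2 and above them for Oas2, while over all genes 7.002% lay below and 4.66% above. The median was -0.42 without control-diet sham replicate 3 and -0.10 without control-diet sham replicate 2.

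Time on the diet gave no call among the members either. From 6 to 15 weeks in control-diet stroke 0 members were called, beside 0.564% of all genes, and 0 had an unadjusted p under 0.05 (16.8% of all genes). DESeq2 and voom gave 0 calls and 0 members at an unadjusted p under 0.05. The median log2 difference was -0.08 (17 above and 25 below 0), and it went to -0.59 without 15-week replicate 1 and to 0.19 without 15-week replicate 3, so its sign depended on which library was left out. The 4 smallest p were those of Stat2 (0.29 ± 0.22, SE), Herc6 (0.16 ± 0.15), Ifi35 (-0.28 ± 0.29) and Cmpk2 (-0.12 ± 0.13), with adjusted p between 0.523 and 0.658.

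In high-fat stroke 0 members were called between 6 and 15 weeks, beside 2.35% of all genes, with 0 at an unadjusted p under 0.05 (17.7% of all genes). DESeq2 called 0 members with 0 at an unadjusted p under 0.05, and voom 0 with 1. The median log2 difference was 0.01 (23 above and 19 below 0), 0.19 without 15-week replicate 1 and -0.08 without 15-week replicate 6. Herc6 (0.19 ± 0.12, SE), Cmpk2 (-0.13 ± 0.11), Stat2 (0.22 ± 0.18) and Sp100 (0.27 ± 0.27) had the smallest p, with adjusted p between 0.448 and 0.631. The test of whether the diet difference in stroke changed with time called 0 members and 0% of all genes, and 0 members had an unadjusted p under 0.05 in edgeR, DESeq2 or voom (4.85%, 3.13% and 6.77% of all genes). Its median was 0.05, but 0.56 without control-diet 15-week replicate 1 and -0.17 without control-diet 15-week replicate 3. Mx1 (0.37 ± 0.56), Mx2 (0.34 ± 0.52), Oas1b (-0.29 ± 0.50) and Ifit2 (0.18 ± 0.35) had the smallest p, each with an adjusted p of 1.00. Age at operation is not given, so age and time on the diet cannot be told apart.

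**Figure D5:**
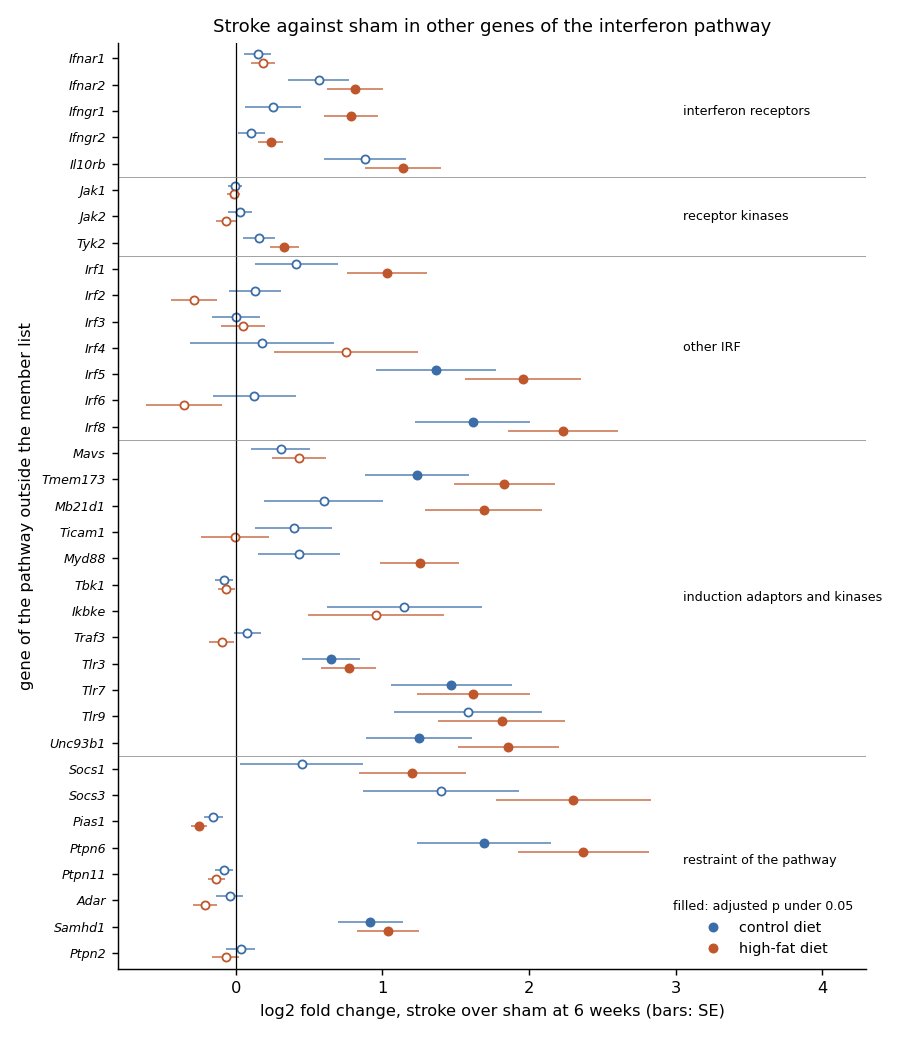
Log2 fold change of stroke over sham at 6 weeks (x axis) with its SE for 35 tested genes of the interferon pathway outside the member list (y axis, by role), on the control diet (blue) and the high-fat diet (orange); filled points have an adjusted p under 0.05. Irf5, Irf8, Tmem173, Tlr3, Tlr7, Unc93b1, Ptpn6 and Samhd1 are filled on both diets, and Pias1 is the only gene called lower, on the high-fat diet.

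The other genes of the pathway show where along it the RNA differed. From a list of 51 further genes 49 were matched and 35 passed the filter, of which 8 rose on the control diet and 19 rose and 1 fell on the high-fat diet, beside the shares of all genes given above. The interferons themselves were hardly seen. Over the 12 matched ligand genes and all 26 libraries there were 19 counts, in 13 libraries, and 5 of the 12 had none. Ifnb1, the interferon-beta gene, had 7 counts in 5 stroke libraries and none in sham, and Ifng, the interferon-gamma gene, had 3 counts in 3 high-fat stroke libraries. A count of 0 allows a level of up to 0.177 to 0.263 CPM in a library, taking 3 counts as the limit. Ligand RNA below that level could go unseen in a library. No ligand gene passed the filter, so none was tested for a difference. RNA of these genes in cells at another time or place was not measured.

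Of 5 tested receptor genes 0 were called on the control diet and 4 rose on the high-fat diet. Ifnlr1, an interferon-lambda receptor gene, did not pass the filter and was not tested, with group means between 0.119 and 0.464 CPM. Ifnar1 was at 50.5 ± 1.53 CPM in control-diet sham (SD, n = 3) and 55.9 ± 1.57 CPM in stroke (SD, n = 4), and in the high-fat groups at 50.2 ± 3.21 CPM (SD, n = 3) and 57.1 ± 5.12 CPM (SD, n = 6). It was not called (log2 0.15 ± 0.09 and 0.19 ± 0.08, SE, adjusted p = 0.33 and 0.102). Ifnar2 rose on the high-fat diet by 0.81 ± 0.19 (adjusted p = 0.0041) and not on the control diet (0.57 ± 0.21, adjusted p = 0.0923). The interferon-gamma receptor genes Ifngr1 and Ifngr2 and the interferon-lambda receptor subunit gene Il10rb also rose on the high-fat diet, by 0.79 ± 0.19, 0.24 ± 0.09 and 1.14 ± 0.26, and did not pass on the control diet, where they had 0.25 ± 0.19, 0.11 ± 0.09 and 0.88 ± 0.28. Jak1 and Jak2 had log2 fold changes between -0.07 and 0.03 without a call on either diet, and Tyk2 rose on the high-fat diet (0.33 ± 0.10, adjusted p = 0.0207) and did not pass on the control diet (0.16 ± 0.11, adjusted p = 0.413). Whether the diets differ in these genes was tested by the surgery-by-diet comparison, which called no gene.

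Of the other interferon regulatory factors, Irf8, a myeloid and microglial factor, rose by 1.62 ± 0.39 and 2.23 ± 0.37 (SE, adjusted p = 0.0159 and 0.000442), and Irf5, a factor of myeloid inflammatory genes, by 1.37 ± 0.41 and 1.96 ± 0.40 (adjusted p = 0.0425 and 0.00143). Irf3, which starts interferon-beta transcription and is regulated by phosphorylation, had log2 fold changes of 0.00 ± 0.16 and 0.05 ± 0.15 (adjusted p = 0.994 and 0.86). Among 12 genes of induction, 4 rose on the control diet and 7 on the high-fat diet. Tmem173, which encodes the DNA-sensing adaptor STING, rose by 1.24 ± 0.36 and 1.83 ± 0.35 (adjusted p = 0.035 and 0.00084). Unc93b1, the escort of endosomal Toll-like receptors, rose by 1.25 ± 0.36 and 1.86 ± 0.35 (adjusted p = 0.036 and 0.000887), and Tlr3, a receptor for double-stranded RNA, by 0.65 ± 0.20 and 0.77 ± 0.19 (adjusted p = 0.0431 and 0.00451). Mb21d1, which encodes the DNA sensor cGAS, Myd88 and Tlr9 rose on the high-fat diet, by 1.69 ± 0.40, 1.25 ± 0.27 and 1.81 ± 0.43, and did not pass on the control diet, where they had 0.60 ± 0.41, 0.43 ± 0.28 and 1.58 ± 0.50. Mavs, Tbk1, Traf3, Ticam1 and Ikbke, the relays between sensors and IRF3, were called on neither diet. Tmem173, Unc93b1, Irf5, Irf8 and Tlr9 are myeloid-rich genes in brain, and the marker sums of microglia and monocytes given above were higher in the same libraries. The part of these cells in the rise of the 5 genes was not tested.

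Genes that restrain the pathway rose in 2 of 8 tested cases on the control diet and in 4 of 8 on the high-fat diet. Ptpn6, the phosphatase SHP-1 of blood cells, rose by 1.69 ± 0.46 and 2.37 ± 0.45 (SE, adjusted p = 0.0272 and 0.000911). Samhd1, a dNTP hydrolase, rose by 0.92 ± 0.22 and 1.04 ± 0.21 (adjusted p = 0.0155 and 0.00135). Socs3, a feedback inhibitor of JAK kinases, rose on the high-fat diet by 2.30 ± 0.53 (adjusted p = 0.00382) and had 1.40 ± 0.53 on the control diet (adjusted p = 0.108). Pias1, a SUMO ligase, fell on the high-fat diet by 0.25 ± 0.06 on the log2 scale (adjusted p = 0.00323), with -0.15 ± 0.06 on the control diet (adjusted p = 0.135). Adar, the RNA editing enzyme whose longer form is interferon-induced, had -0.04 ± 0.09 and -0.21 ± 0.08 without a call (adjusted p = 0.828 and 0.0673).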

How the data were processed

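Total RNA from frozen cortex was made into stranded paired-end libraries, per the labels' protocols. Per gene identifier, the authors deposited raw counts: the values are whole numbers and their totals differ between libraries. The submitters' processing notes name Trim Galore, STAR, featureCounts, HTSeq and the build mm9, without roles or versions. Summary entries held between 45.7% and 58.2% of the counts of a library and were left out. Gene counts per library were between 11400882 and 16962682, so a gene at 1 CPM rests on few counts. GENCODE M21 gave a name to 37607 of the 39179 identifiers.

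Genes passed filterByExpr in edgeR 4.0.16 (minimum count 10, R 4.3.3), and 9 contrasts were tested by its robust quasi-likelihood method over all 26 libraries with 1 mean per group, TMM scaling and Benjamini-Hochberg adjustment over all 16325 genes at 0.05. The SE is the log2 fold change divided by the square root of F. CPM uses TMM library sizes and RPKM adds the M21 exon length. Similar transcripts were found with BLAST 2.17.0+. The fit was tested on simulated data. No library was treated as a copy, since chi-square over its expectation was 3.34 to 70.2 for pairs within a group. Intervals cover counting error only.

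The members and lists were chosen with earlier results of these data known. Named by rule are the 2 members of each role with the highest mean CPM, those not called in both stroke comparisons, the 4 smallest p where none was called, and up to 12 other pathway genes by p beside receptors and kinases. A gene of the wider pathway list is not reported here. Other members, Tlr7, Irf3, Adar and the relays to IRF3 were added after their values were seen. Alternatives were RLE factors, DESeq2 1.42.0, voom with quality weights in limma 3.58.1, a fit of the compared groups alone and a non-robust fit. Genes of mitochondria, rRNA and haemoglobin were also left out, as were libraries. Further alternatives were other filters, the share of counts outside genes as a covariate and summed near-identical genes.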

Additional observations from a re-analysis of the deposited data

Results flagged for a closer look

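Of 172 groups of 4 to 6 libraries examined for the 42 members and their summed level, 22 values, all of single members (12.8%), lay far from the rest of their group, where chance gives about 1 group in 20, and the values share libraries and so are not independent. Control-diet stroke replicate 2 at 6 weeks was far above its group for 8 members. It had 28.66 CPM of Irf7 (next library 15.73), 6.814 of Dhx58 (4.579), 53.11 of Ifit2 (44.63), 9.807 of Oas1a (5.548), 19.17 of Oasl2 (13.01), 10.63 of Uba7 (7.485), 11.53 of Ifi35 (7.373) and 29.42 of Trim30a (19.11). High-fat stroke replicate 1 at 15 weeks was far below its group for 8 members. It had 7.812 CPM of Ddx58 (next library 27.7), 10.85 of Ifih1 (27.09), 13.9 of Dtx3l (28.26), 16.28 of Eif2ak2 (37.29), 5.345 of Bst2 (24.13), 19.08 of Samd9l (45.07), 8.223 of Lgals3bp (34.66) and 6.414 of Xaf1 (15.72). Control-diet stroke replicate 1 at 15 weeks was far above for 2.917 CPM of Oas1b (next 1.115), 8.898 of Mx2 (2.956) and 17.65 of Rsad2 (6.046). High-fat stroke replicate 5 at 6 weeks was far above for 7.182 CPM of Oas2 (next 3.882), 18.08 of Uba7 (11.19) and 67.01 of Samd9l (43.67). The first 3 of these libraries are also at an end of their group in the microglia and monocyte marker sums, and the part of that was not tested.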

How the results depend on the processing

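The count of members called higher on the control diet was 34. Over all genes that comparison called 1253. Leaving out the low-count filter made the member count 21 (767 genes in all), and the covariate for counts outside genes made it 18 (725). Single libraries left out gave 5 to 33 (303 to 1448). DESeq2 gave 36 (1758), voom 39 (2860) and the compared groups alone 39 (2453). The cause was not tested. On the high-fat diet the member count was 39 to 42 with 1 library left out (1991 to 3736 genes in all). The other 7 counts of members called stayed at 0. The summed level in high-fat sham was 259.5 CPM, from 234.9, with mitochondrial, ribosomal RNA and haemoglobin genes removed. Only the members named in a comparison were followed singly under each setting, and 4 of those values changed sign, none of them called. Cmpk2 between weeks in high-fat stroke was 0.007147 with the covariate. With 1 library left out, Herc6 between weeks in control-diet stroke ranged from -0.02565 to 0.2499, Oas1b in the diet-by-weeks difference from -0.5735 to 0.3269 and Ifit2 in that difference from -0.004864 to 0.5477. No paired analysis was possible because the labels give no replicate numbers. Depth limits Oas1g, Oas3 and Zbp1 most, with at most 9 counts per sham group, and the interferon genes. It also limits Oas2 and Oasl1, with between 9 and 15 counts in each sham group. In high-fat sham Oas1b and Isg15 had 15 counts each and Mx1 had 12, so their ratios are loose too.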
